A study of Rattus norvegicus with 24 samples.

Results

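Livers of rats fed a diet with 5% protein for 4 weeks were compared with livers of rats fed 20% protein for the same time, across every gene that the array measured. The 12 arrays labelled with 4 weeks entered, of 24 in the series, 6 for each diet. Each array held the liver RNA of 1 animal. All animals were male Wistar rats, an outbred laboratory strain, and the labels give neither their age nor any agent besides the diet. The labels call 20% protein the normal diet and 5% the low protein diet. The description codes of the arrays hold 4 and 18 where the titles hold 5 and 20, and the design text speaks of 4 weeks for all animals, so the percentages and times are those of the titles. Arrays of 6 animals per diet fed for 1 week were used only to ask whether a difference was already present then. The series title speaks of fatty liver and of failing peroxisomes and mitochondria. No label of these arrays names fenofibrate, the drug in the title.

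The values are log2 intensities of 17245 genes, each represented by the probe set with the highest mean among those paired with that symbol alone. A difference is 5% minus 20% protein on the log2 scale, so that 1.00 is a doubling, and its error is the standard error of limma's linear model over all 4 groups. A gene rose or fell where the Benjamini-Hochberg adjusted p of limma over all genes was below 0.05. Triplets of values are the lowest, the median and the highest of the 6 animals of a group.

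When dietary protein is scarce, uncharged transfer RNA and other stress signals lead cells to phosphorylate the initiation factor eIF2, which slows translation in general but lets the transcription factor ATF4 be made. ATF4 switches on genes that import and make amino acids and charge transfer RNA. The liver also breaks down surplus amino acids, makes urea, secretes most plasma proteins, and sets circulating IGF1 under the control of growth hormone, whose pulsed release in males gives male and female rat liver different sets of P450 enzymes and transporters. Fatty acids are burnt there in mitochondria and peroxisomes, and PPARα is the receptor that fenofibrate acts on to induce the genes of that oxidation.

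The samples matched their label as liver. The mean log2 intensity over 11 hepatocyte markers, albumin among them, lay between 12.72 and 13.11 on the 12 arrays. Arrays of the same diet correlated at 0.986 to 0.994, and a principal component analysis of the 12 arrays put 5% and 20% animals on opposite sides of its first axis, which held 54% of the variance. Some arrays stood apart within a diet, by measures the labels do not name. The 20% animals 29, 30 and 63 had low Bmal1 and high Per2 and Dbp, the reverse of the 20% animals 67, 72 and 73 and of all 5% animals, as described with the clock genes below. Animal numbers 22 to 32 and 59 to 73 form separate runs, with 5 of the 5% animals and 2 of the 20% animals in the first. Some arrays also had high values of genes best known from other tissues, and the source of that RNA was not tested. Adipoq was at 6.96 in the 5% animal 31 and 6.19 in the 20% animal 30, against at most 4.56 in the other 10, and Mb, the muscle myoglobin, was at 7.19 in the 20% animal 63 against at most 4.31 elsewhere. Ucp1 was at 7.99 in the 5% animal 31 against at most 3.73 elsewhere. Where a gene whose rise or fall is given below with its size lost its call without the 20% animals 29, 30 and 63 or without 67, 72 and 73, its value in that fit is given too.

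The 2 diets parted a large share of the array. Of 17245 genes, 2308 rose (13.4%) and 2147 fell (12.4%) on 5% protein, 4455 or 25.8% together, and 6103 had an unadjusted p below 0.05. Most of these differences were small: 971 rises and 828 falls reached 1.5-fold, 324 and 309 reached 2-fold, 70 and 63 reached 4-fold, and 8 and 11 reached 16-fold. The median size of a called difference was 0.51, and the median difference of all genes was -0.01. In 2143 genes (12.4%) the values of the 6 animals on 5% did not overlap those of the 6 on 20%, 1129 of them higher (6.55%) and 1014 lower (5.88%). Counts of called or non-overlapping list members below can be set against these shares. At the other end, 12797 genes (74.2%) were held within 1.5-fold, in that the 95% confidence interval of their difference lay inside that range. Of the genes held, 1240 were called all the same, and 1233 genes were neither called nor held. Values varied to a like degree on both diets, with a median SD of 0.17 on 5% and 0.18 on 20%.

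Calls were then compared across sets of animals. Leaving out each of the 12 animals in turn left between 2060 and 2394 rises and between 1922 and 2121 falls, and 1784 of the rises and 1590 of the falls were called in the same direction in each of these 12 fits. Without the 20% animals 29, 30 and 63, 78.6% of the rises and 72.5% of the falls were called again, and without the 20% animals 67, 72 and 73, 62.6% and 62.8%. No gene was called in the opposite direction in either fit. With the run of animal numbers as a covariate, 75.5% of the rises and 72.1% of the falls were called again. Within the runs alone, 2279 of 2308 rises and 2116 of 2147 falls had the same sign in both. These genes had been called on the animals of both runs together, which by itself favours shared signs. The later run of animal numbers also holds a single animal on the low protein diet. The sign counts are therefore not a separate check of the calls.

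Most genes that differed at 4 weeks had not been called at 1 week. At 1 week 321 genes were higher (1.86%) and 420 lower (2.44%) on 5% protein. Of the 4-week rises, 240 (10.4%) had been called higher at 1 week, and of the falls 272 (12.7%) had been called lower. Read the other way, 74.8% of the 1-week rises and 64.8% of the 1-week falls were called again at 4 weeks, and 79 and 147 were not. A test of the difference itself, the diet effect at 4 weeks minus that at 1 week, called 611 genes higher (3.54%) and 380 lower (2.2%), or 5.75% in all. Among the genes called at 4 weeks it called 578 of the rises and 353 of the falls in the same direction. That count turned on the animals compared: 930 and 669 genes were called without animals 29, 30 and 63, and 76 and 51 without animals 67, 72 and 73. It was 311 and 175 with the run within each week as a covariate, and it fell to 360 and 219 without the 5% animal 32, 365 and 227 without 31, 394 and 238 without the 20% animal 72, 386 and 233 without 73, and 413 and 247 without 67. Each statement of a diet effect that grew between the weeks, below, rests on that test with all animals.

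**Figure D1:**
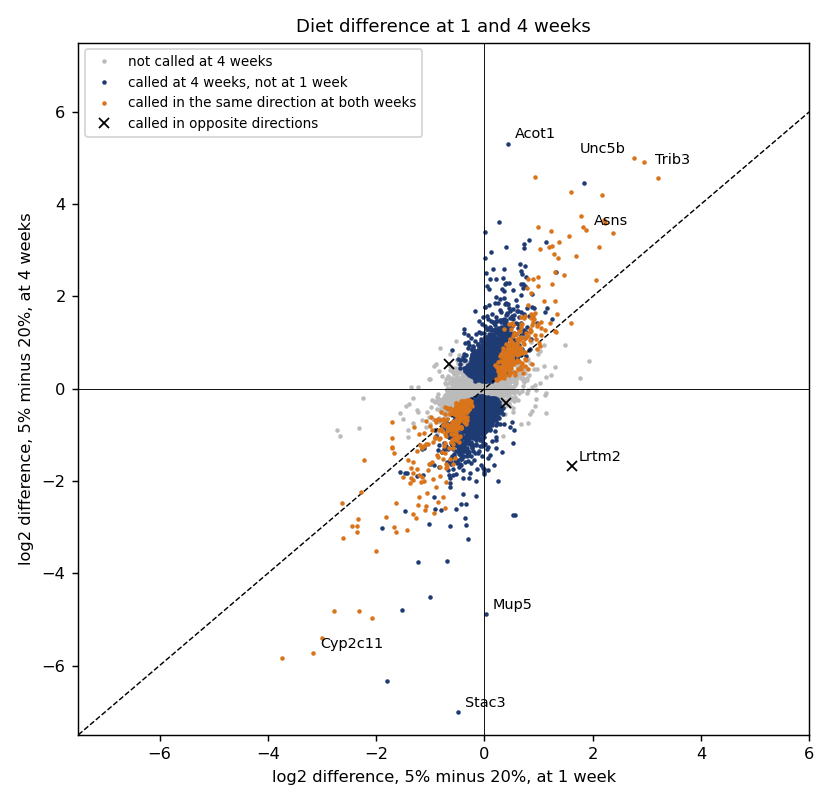
Log2 difference between 5% and 20% protein at 1 week (horizontal axis) and at 4 weeks (vertical axis), 1 point per gene. Grey points are genes not called at 4 weeks, dark blue points are called at 4 weeks and not at 1 week, orange points are called in the same direction at both weeks; the dashed line marks equal differences. Black crosses are the 3 genes called in opposite directions. Acot1, Mup5 and Stac3 lie close to the vertical axis, Trib3 and Cyp2c11 were far from 0 at both weeks, and Lrtm2 changed sign.

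The largest rises were spread over enzymes, receptors and secreted proteins. Acot1, a cytosolic thioesterase that splits acyl-CoA and a target of PPARα, was at 6.19, 9.16 and 11.46 in the 5% animals and at 3.53, 3.67 and 3.82 in the 20% animals. It rose by 5.31 ± 0.68 (adjusted p = 2.57e-06), and the lowest 5% animal lay above the highest 20% animal. Unc5b, a netrin receptor that p53 induces, was at 9.72, 10.42 and 10.64 against 5.13, 5.23 and 5.58 and rose by 5.0 ± 0.41 (adjusted p = 4.96e-09). Trib3, Igfbp1, Gsta3, Fgf21, Serpina7, Phgdh, Slc7a1, Abcc3 and Asns are described with their groups. The others among the 15 largest non-overlapping rises were Abo3, a glycosyltransferase of the blood group family, at 4.45 ± 0.57, Gucy2c, the guanylin receptor best known from gut epithelium, at 4.26 ± 0.31, the stress-induced Niban1 at 3.51 ± 0.46, and the uncharacterised C1h11orf86 at 3.62 ± 0.56. Gucy2c was near the low end of the scale in the 20% animals, at 3.97, 4.33 and 4.53, and at 7.10, 8.72 and 9.89 in the 5% animals.

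Of the 15 largest non-overlapping falls, 8 were of the listed genes that differ between male and female rat liver, Stac3 among them, and the rest of these 8 are described below. Stac3, an SH3 domain protein best known from muscle, was at 4.35, 4.51 and 4.84 in the 5% animals and at 10.16, 11.88 and 12.28 in the 20% animals. It fell by 7.02 ± 0.29 (adjusted p = 1.43e-14), the largest difference of all genes, with a gap of over 5 log2 units between the groups. The large falls outside the sex-biased list were of Inmt, an N-methyltransferase of indolamines, by 4.82 ± 0.58, Spink1l, which is related to a trypsin inhibitor, by 4.80 ± 0.50, Nox4, an NADPH oxidase that makes hydrogen peroxide, by 4.51 ± 0.33, and Acnat2, a peroxisomal enzyme that joins fatty acids to amino acids, by 3.76 ± 0.54. Sez6 fell by 3.73 ± 0.43, Wfdc21 by 3.51 ± 0.40 and the sulfotransferase gene Sult1c2al1 by 3.25 ± 0.20. Wfdc21 depended on the 20% animals compared, with -4.24 without 29, 30 and 63 and -2.79 without 67, 72 and 73.

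**Figure D2:**
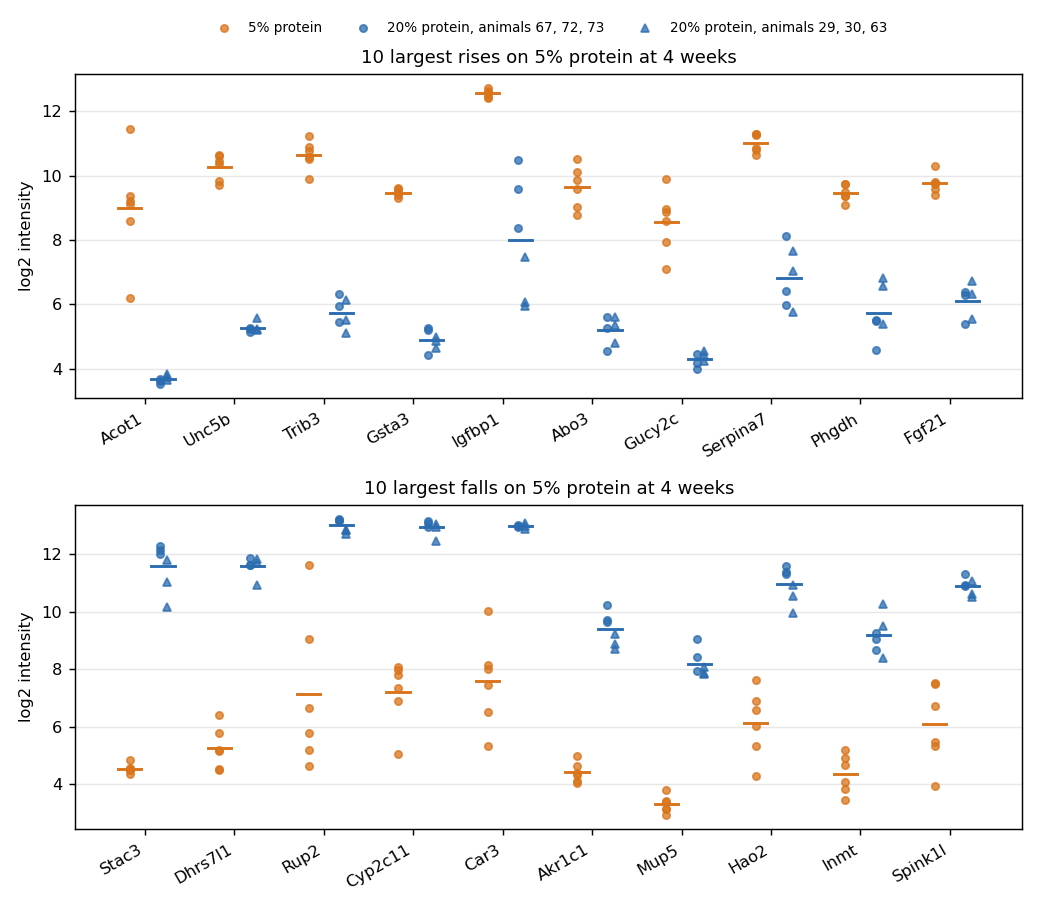
Log2 intensity per animal of the 10 largest non-overlapping rises (upper panel) and falls (lower panel) on 5% protein at 4 weeks. Orange points are the 6 animals on 5% protein, blue circles the 20% animals 67, 72 and 73, blue triangles the 20% animals 29, 30 and 63, and the bars are group means. In each gene shown every orange point lies on 1 side of every blue point, with the widest gap in Stac3.

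Regulators of the amino acid response mostly rose. Of 21 measured regulators 12 rose and 3 fell, with a median difference of 0.51. Trib3, a pseudokinase that ATF4 induces and that dampens insulin and ATF4 signalling, was at 9.89, 10.68 and 11.24 in the 5% animals and 5.12, 5.73 and 6.31 in the 20% animals, and rose by 4.90 ± 0.41 (adjusted p = 6.88e-09). The groups did not overlap, and the gap between them was wider than the range of either. Atf4 itself rose by 0.76 ± 0.11, and its partners and targets Atf3 by 2.28 ± 0.40, Ddit3, the proapoptotic factor CHOP, by 1.36 ± 0.20, Nupr1 by 1.28 ± 0.12 and Chac1, which degrades glutathione, by 1.24 ± 0.21. Ddit4, an inhibitor of mTOR complex 1, rose by 1.91 ± 0.35. The eIF2 kinases were not called, with Eif2ak4 (GCN2) at 0.24, Eif2ak3 (PERK) at 0.19 and Eif2ak1 at -0.11. Both sides of the eIF2 phosphatase moved, since the stress-induced subunit Ppp1r15a rose by 1.14 ± 0.23 while the constitutive Ppp1r15b fell by 0.71 ± 0.14.

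ATF4 pairs with C/EBP factors on composite elements whose core is often written TGATGNAA. That core was searched on both strands of the RefSeq windows that run from 250 bases before to 50 bases after each gene start (build GRCr8), and the following 60-base stretches hold it. These 8 genes are shown because, of a chosen set of genes that rose, they were the ones with a match. The stretches are written 5′ to 3′ along the strand of the gene, with the match in capitals (TTNCATCA is the core read on the other strand).
Trib3: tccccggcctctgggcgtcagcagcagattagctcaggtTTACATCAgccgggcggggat
Slc7a1: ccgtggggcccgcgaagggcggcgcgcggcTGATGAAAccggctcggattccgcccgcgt
Fgf21: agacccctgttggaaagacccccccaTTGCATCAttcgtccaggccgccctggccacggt
Nupr1: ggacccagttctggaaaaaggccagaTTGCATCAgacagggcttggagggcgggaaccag
Chac1: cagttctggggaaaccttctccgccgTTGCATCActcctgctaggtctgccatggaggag
Pycr1: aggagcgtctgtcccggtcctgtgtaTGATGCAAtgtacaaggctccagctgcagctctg
Pck2: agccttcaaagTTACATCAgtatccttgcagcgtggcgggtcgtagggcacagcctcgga
Iars1: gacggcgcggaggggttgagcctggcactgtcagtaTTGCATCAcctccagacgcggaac
The matches of Trib3, Slc7a1 and Iars1 start 21, 30 and 24 bases before the gene start and that of Pck2 239 bases before it. Trib3 and Pck2 hold the same 8 letters, as do Fgf21, Nupr1, Chac1 and Iars1. Positions in the genome are chr3:161275534-161275593 (minus strand) for Trib3, chr12:11664428-11664487 (plus) for Slc7a1, chr1:105221486-105221545 (minus) for Fgf21, chr1:190645923-190645982 (minus) for Nupr1, chr3:126795938-126795997 (plus) for Chac1, chr10:106420910-106420969 (minus) for Pycr1, chr15:32997603-32997662 (plus) for Pck2 and chr17:15193653-15193712 (minus) for Iars1. The letters are not rare. Matched by Entrez identifier, 14047 of the measured genes had a window. The letters occurred in 3.98% of all 33469 windows. Counted by gene, with a match in any window of the gene, they occurred in 3.19% of the 14047. The share was 3.48% of the 1953 genes that rose, 2.12% of the 1749 that fell and 3.32% of the 10345 not called. Among genes that rose at least 2-fold the share was 4.83% (13 of 269) and among those that fell at least 2-fold 1.23% (3 of 244). The windows of Asns, Phgdh, Psat1, Ddit3, Slc7a11, Slc7a5 and Niban1, which rose too and were searched with the 8, do not hold these letters. Atf3 and Aldh18a1 were in the same chosen set and had no window.

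Enzymes that make non-essential amino acids differed by pathway. Of 19 measured, 7 rose and 6 fell. Asns, asparagine synthetase, was at 9.27, 9.88 and 10.16 against 5.39, 6.05 and 7.59 and rose by 3.44 ± 0.48 (adjusted p = 9.46e-06). The groups did not overlap, and the 20% animals spread widely, so that the difference was 4.13 without the 20% animals 29, 30 and 63 and 2.75 without 67, 72 and 73. Phgdh, which opens serine synthesis, was at 9.09, 9.43 and 9.75 against 4.56, 5.50 and 6.83 and rose by 3.74 ± 0.44, and Psat1, the next enzyme, rose by 2.54 ± 0.44, while Psph, the last step, was at 0.30 ± 0.19 and not called. In proline synthesis Aldh18a1 rose by 2.88 ± 0.20 and Pycr1 by 2.92 ± 0.23. The mitochondrial folate enzymes Mthfd2 and Mthfd1l also rose, by 1.91 ± 0.18 and 0.83 ± 0.20. The falls were of Oat, Gpt, Cbs, Gpt2 and Shmt1, which also serve breakdown, and of Aldh1l2, another mitochondrial folate enzyme, which fell by 0.54. Gpt2 and Shmt1 lost their calls without the 20% animals 29, 30 and 63, at -0.366 (adjusted p = 0.368) and -0.265 (adjusted p = 0.264). Aldh1l2 lost its call without 67, 72 and 73, at -0.39 (adjusted p = 0.245).

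Of 34 amino acid transporters 9 rose and 13 fell. Slc7a1, the uptake carrier for arginine and lysine, was at 7.78, 8.48 and 9.10 in the 5% animals and 4.60, 4.89 and 5.07 in the 20% animals, and rose by 3.58 ± 0.27 (adjusted p = 9.03e-10). Slc7a11, which imports cystine, rose by 3.38 ± 0.37, Slc7a5, which exchanges large neutral amino acids, by 2.30 ± 0.27, and their shared heavy chain Slc3a2 by 1.21 ± 0.24. The call of Slc3a2 was lost without the 20% animals 67, 72 and 73, at 0.78 (adjusted p = 0.0513). Slc1a4 rose by 0.77 ± 0.19, a call lost without the 20% animals 29, 30 and 63 (0.42, adjusted p = 0.181). The largest falls were of Slc16a10, which lets aromatic amino acids out, by 2.02 ± 0.19, the glutamate carrier Slc1a2 by 1.82 ± 0.54 and Slc43a1, an exit path for branched-chain amino acids, by 1.53 ± 0.17. Slc1a2 lost its call without the 20% animals 29, 30 and 63, at -1.14 (adjusted p = 0.247). The liver's own arginine carrier Slc7a2 fell by 0.47 ± 0.12, and the mitochondrial ornithine carrier Slc25a15 by 0.61 ± 0.09.

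Genes of protein synthesis rose in number, and none of those listed fell. Of 54 cytosolic ribosomal proteins 53 rose, of 31 ribosome assembly factors 29, of 21 genes of cytosolic transfer RNA synthetases and their scaffold 17, and of 38 translation factors 25. The share of all genes that rose was 13.4%. The medians were 0.65 for ribosomal proteins, 0.80 for assembly factors, 0.68 for synthetases and 0.42 for translation factors. Rps12 rose by 1.30 ± 0.16 and Rps19, mutated in Diamond-Blackfan anaemia, by 1.10 ± 0.10, and in 48 of the 54 ribosomal proteins the groups did not overlap. The share of all genes without overlap was 12.4%, with 6.55% higher on 5% protein. At 1 week 33 of the ribosomal proteins had been called higher and none of the assembly factors. Among the assembly factors Npm1, a nucleolar chaperone, rose by 1.32 ± 0.18 and Gar1, which guides pseudouridylation, by 1.37 ± 0.22. Vars1, the valyl-tRNA synthetase, rose by 1.25 ± 0.15 and Iars1, the isoleucyl enzyme, by 1.08 ± 0.23, and Eif2b3, a subunit of the factor that reloads eIF2 with GTP, by 1.08 ± 0.24. The calls of Iars1 and Eif2b3 were lost without the 20% animals 67, 72 and 73, at 0.68 (adjusted p = 0.0752) and 0.71 (adjusted p = 0.0912). The ribosomal proteins kept 51 rises without the 20% animals 29, 30 and 63, and 51 without 67, 72 and 73. The counts of assembly factors and synthetases depended on the animals, with 26 and 18 without 29, 30 and 63, and 12 and 9 without 67, 72 and 73. In the latter fit the medians were 0.54 and 0.55 and no member fell.

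**Figure D3:**
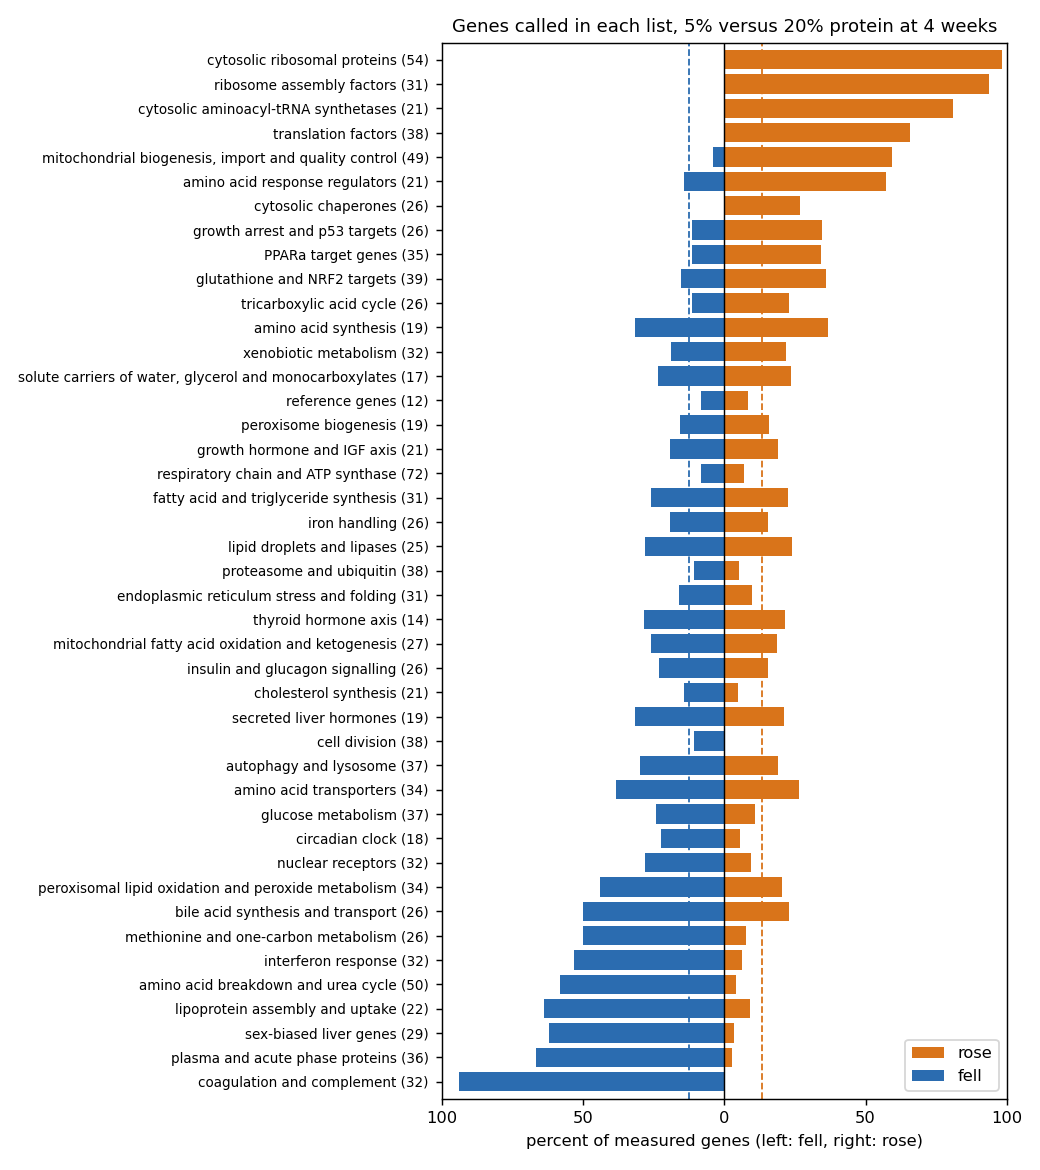
Percent of the measured genes of each list that rose (orange, to the right) or fell (blue, to the left) on 5% protein at 4 weeks, with the number measured in brackets. The dashed lines are the shares of all 17245 genes, 13.4% higher and 12.4% lower. Ribosomal proteins and assembly factors lie farthest to the right, and coagulation and complement factors farthest to the left.

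Many enzymes that break amino acids down fell. Of 50 genes of amino acid breakdown and the urea cycle 29 fell and 2 rose, with a median of -0.46, and 4 had been called lower at 1 week. Sds, serine dehydratase, was at 4.02, 4.56 and 4.87 in the 5% animals and at 5.30, 7.71 and 10.23 in the 20% animals. It fell by 3.23 ± 0.53 (adjusted p = 6.46e-05) without overlap, with the wider spread on 20% protein (SD 1.85 against 0.29). Oat, ornithine aminotransferase, was at 6.42, 7.30 and 7.94 against 9.54, 10.52 and 11.01 and fell by 3.11 ± 0.36 (adjusted p = 6.38e-07). Gpt, alanine aminotransferase, fell by 2.28 ± 0.27, Aass, which starts lysine breakdown, by 1.65 ± 0.34, Hal, histidase, by 1.64 ± 0.17, and Tdo2, which opens the tryptophan ring, by 1.61 ± 0.20. In the urea cycle Arg1, arginase, fell by 1.24 ± 0.26, Otc by 0.99 ± 0.15, Cps1 by 0.71 ± 0.10 and Ass1 by 0.50 ± 0.13, whereas Asl was at 0.24 ± 0.16 and not called. In the fit without the 20% animals 67, 72 and 73 Ass1 was at -0.44 (adjusted p = 0.0757) and no longer called. Bckdk, the kinase that switches off the breakdown of branched-chain amino acids, rose by 0.74 ± 0.14. Hibch, an enzyme of valine breakdown, rose by 0.61 ± 0.10.

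Among 26 genes of methionine and one-carbon metabolism 13 fell and 2 rose. Cbs, which commits homocysteine to cysteine, fell by 1.87 ± 0.20, and Gnmt, which disposes of surplus methyl groups, by 1.84 ± 0.28. Bhmt, which remethylates homocysteine with betaine, fell by 0.87 ± 0.27, while Mtr, which does so with folate, rose by 0.56 ± 0.12. The call of Bhmt was lost without the 20% animals 67, 72 and 73, at -0.67 (adjusted p = 0.199). The enzymes that make S-adenosylmethionine were not called, with Mat1a at 0.09 and Mat2a at 0.22. Mat2a was called without the 20% animals 29, 30 and 63, at 0.712 (adjusted p = 0.02485).

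Hormones secreted by the liver and the proteins that carry IGF1 went both ways. Of 19 secreted hormones 4 rose and 6 fell, and of 21 genes of growth hormone and IGF1 action 4 rose and 4 fell. Fgf21, a liver hormone of fasting and protein shortage, was at 9.41, 9.75 and 10.30 in the 5% animals and 5.40, 6.30 and 6.72 in the 20% animals, and rose by 3.66 ± 0.54 (adjusted p = 1.61e-05). Gdf15, a stress hormone that curbs appetite, rose by 1.86 ± 0.32 with a wide spread on 5% (SD 0.66) and some overlap. Its difference at 1 week was 0.20 ± 0.32, and the growth between the weeks was called (adjusted p = 0.0343). Igfbp1, which binds IGF1 and is held down by insulin, was at 12.42, 12.56 and 12.71 against 5.96, 7.92 and 10.48 and rose by 4.57 ± 0.64 (adjusted p = 8.45e-06). The 5% animals were within 0.11 (SD) of each other and the 20% animals ranged widely, so that the difference was 3.08 without animals 29, 30 and 63 and 6.06 without 67, 72 and 73. Igfbp2 rose by 3.07 ± 0.30. The growth-hormone-dependent partners of the circulating IGF1 complex fell: Igf1 by 0.70 ± 0.08, Igfbp3 by 1.20 ± 0.16 and Igfals, the acid-labile subunit, by 2.98 ± 0.31. The growth hormone receptor Ghr was at -0.21 ± 0.10 and the signalling brakes Socs2 and Cish at -0.45 and 0.21, none of them called. Without the 20% animals 29, 30 and 63, however, Socs2 was called, at -1.37 (adjusted p = 0.0264).

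Of 26 genes of insulin and glucagon signalling 4 rose and 6 fell, where 13.4% of all genes rose and 12.4% fell. The insulin receptor Insr rose by 0.38 ± 0.09 and Grb10, an adaptor that restrains it, by 1.52 ± 0.18. Of the receptor's substrates Irs2 rose by 1.22 ± 0.30 and Irs1 fell by 0.61 ± 0.13, but the call of Irs2 was lost without the 20% animals 29, 30 and 63 (0.74, adjusted p = 0.113). Pik3r1, the regulatory subunit of PI3-kinase, fell by 1.19 ± 0.17 and the glucagon receptor Gcgr by 0.73 ± 0.12.

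Genes that differ between male and female rat liver had the lowest median of the gene lists compared. Of 29 measured 18 fell and 1 rose, with a median of -1.19, and in 18 of the 29 the groups did not overlap. Of all genes 12.4% fell, 13.4% rose and 12.4% did not overlap. Cyp2c11, the male-specific P450, was at 5.04, 7.58 and 8.07 in the 5% animals and at 12.46, 12.98 and 13.14 in the 20% animals, and fell by 5.73 ± 0.74 (adjusted p = 2.90e-06). Its female counterpart Cyp2c12 went the other way, from 8.30, 8.41 and 9.59 on 20% to 10.70, 11.87 and 12.53 on 5%, a rise of 2.96 ± 0.25 (adjusted p = 8.27e-09). Other falls were of Rup2 by 5.83 ± 0.92, Car3, the male-predominant carbonic anhydrase, by 5.39 ± 0.53, Mup5, a urinary protein, by 4.88 ± 0.17, Akr1c1 by 4.98 ± 0.27, Dhrs7l1 by 6.33 ± 0.53 and Hao2, a peroxisomal hydroxyacid oxidase, by 4.82 ± 0.63. The change was not a plain exchange of male for female genes, since Sult2a1 and Cyp2c7, which female liver has more of, fell by 2.77 ± 0.50 and 3.09 ± 0.58, and the female-predominant regulator Cux2 was at 0.19 ± 0.45. Members of the Cyp2c, Sult, Akr1c and urinary protein families are close copies whose probes can share signal, so values of single members are uncertain.

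Mup5, Stac3, Dhrs7l1, Nox4 and Lrtm2 had the largest falls by the test of growth between the weeks. Stac3 had been at -0.49 ± 0.29 at 1 week, Mup5 at 0.02 ± 0.17 and Nox4 at -1.01 ± 0.33. For Stac3 the 20% animals had a median of 4.89 at 1 week and 11.88 at 4 weeks, against 4.49 and 4.51 on 5% protein, and the 20% animals at 4 weeks were the only group with high values. Lrtm2 was 1.61 ± 0.37 at 1 week and -1.68 ± 0.37 at 4 weeks, both called. In the other direction Acot1, Gsta3, Ccdc92, C1h11orf86 and Cyp2c12 led, with Acot1 at 0.43 ± 0.68 and Ccdc92 at 0.02 ± 0.43 at 1 week against 3.40 ± 0.43 at 4 weeks.

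Of 32 nuclear receptors 3 rose and 9 fell. Esr1, the oestrogen receptor, was at 5.70, 6.44 and 7.06 on 5% and 8.84, 9.21 and 9.48 on 20% protein and fell by 2.70 ± 0.18 (adjusted p = 2.58e-10), without overlap. Esrrg fell by 1.56 ± 0.28, Rara by 0.72 ± 0.10 and the glucocorticoid receptor Nr3c1 by 0.64 ± 0.11. Rxra, the partner of many of these receptors, fell by 0.48 ± 0.11. Ppara was held close to its level on 20%, with a difference of 0.05 and a 95% confidence interval of -0.39 to 0.49. On the thyroid axis, Serpina7, thyroxine-binding globulin, was at 10.64, 11.06 and 11.29 against 5.77, 6.72 and 8.11 and rose by 4.19 ± 0.32 (adjusted p = 1.41e-09), while Thrsp, a lipogenic target of thyroid hormone, fell by 2.0 ± 0.47 and Dio1, which activates the hormone, was at -0.28 ± 0.16.

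Targets of PPARα moved unevenly. Of 35 measured 12 rose, 4 fell and 19 were not called, with a median of 0.18. The rises besides Acot1 and Fgf21 included Cpt1b, the muscle form of the carnitine acyltransferase that admits fatty acids to mitochondria, at 6.90, 8.73 and 10.68 on 5% and 5.32, 5.46 and 6.12 on 20%, a rise of 3.14 ± 0.49. Aqp7, a glycerol channel, rose by 2.51 ± 0.34, Vnn1 by 2.02 ± 0.31 and Crat, carnitine acetyltransferase, by 1.78 ± 0.34. The size of the Vnn1 rise depended on the 20% animals, with 2.84 without 29, 30 and 63 and 1.21 without 67, 72 and 73. The liver form Cpt1a was at 0.07 (95% confidence interval -0.72 to 0.85), Ehhadh at 0.52 ± 0.25 and Pdk4 at 1.02 ± 0.45, and these 3 were not called. Cpt1a was 1.33 in the first run of animal numbers and -1.52 in the other, which holds a single 5% animal. Pdk4 was called without the 20% animals 67, 72 and 73, at 1.80 (adjusted p = 0.015). Acadm, the medium-chain dehydrogenase, fell by 0.47 ± 0.12 and Fabp1, the liver fatty acid binding protein, by 0.79 ± 0.14. Acadm lost its call without the 20% animals 67, 72 and 73, at -0.41 (adjusted p = 0.0673). Acot1 and Acot2 are close copies, so their separate sizes are uncertain.

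Genes of peroxisomes and peroxide metabolism moved in both directions. Of 34 genes of peroxisomal lipid oxidation and peroxide metabolism 15 fell and 7 rose, with a median of -0.25. Of 19 genes of peroxisome biogenesis 3 rose, 3 fell and 13 were not called, with a median of 0.00. The shares of all genes were 13.4% higher and 12.4% lower. Hao2 was at 4.29, 6.31 and 7.61 on 5% protein against 9.96, 11.10 and 11.59 on 20%. Beside Hao2 and Acnat2, Xdh, which makes urate and peroxide, fell by 1.89 ± 0.15, Acox2, the oxidase for branched chains and bile acid precursors, by 1.35 ± 0.18, Amacr by 1.12 ± 0.23, and catalase, Cat, by 0.21 ± 0.06. The call of Cat was lost without the 20% animals 67, 72 and 73, at -0.18 (adjusted p = 0.122). Crot, which moves shortened chains out as carnitine esters, rose by 1.14 ± 0.23 and Ephx2 by 0.94 ± 0.29. Abcd2, an importer of very long chains that was counted in the biogenesis list, rose by 2.15 ± 0.40. Ephx2 lost its call without either set of 20% animals, at 1.03 (adjusted p = 0.0554) without 29, 30 and 63 and 0.86 (adjusted p = 0.124) without 67, 72 and 73. Pex11a, which drives peroxisome division and is a PPARα target, rose by 1.15 ± 0.36, a call lost without the 20% animals 29, 30 and 63 (0.93, adjusted p = 0.144). The import receptor Pex5 fell by 0.44 ± 0.14, a call lost without 67, 72 and 73 (-0.21, adjusted p = 0.423). Pex11a also lost its call without the 20% animal 30 or the 5% animal 32, and Pex5 without any one of 59, 67, 72 and 73.

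Mitochondrial genes differed by function. The 72 subunits of the respiratory chain and ATP synthase were mostly held: 64 lay within 1.5-fold by their interval, 5 rose, 6 fell, and the median was 0.01. The largest fall was of Ndufa1, by 0.69 ± 0.13, and the largest rise of Cyc1, by 0.44 ± 0.12. Cyc1 lost its call without the 20% animals 29, 30 and 63, at 0.40 (adjusted p = 0.0638). By contrast 29 of 49 genes of mitochondrial biogenesis, import and quality control rose and 2 fell, with a median of 0.33. Ppargc1a, the coactivator PGC-1α, rose by 1.56 ± 0.28, the matrix protease Lonp1 by 1.49 ± 0.16, the matrix chaperone Hspa9 by 0.92 ± 0.10 and the import pore Tomm40 by 0.82 ± 0.18. Tfam, which packages mitochondrial DNA, rose by 0.35 ± 0.09, and Fis1, a fission receptor, fell by 0.44 ± 0.14. Tfam lost its call without the 20% animals 29, 30 and 63, at 0.28 (adjusted p = 0.0665), and Tomm40 and Fis1 without the 20% animals 67, 72 and 73, at 0.55 (adjusted p = 0.064) and -0.38 (adjusted p = 0.166). Fis1 also lost its call without the 5% animal 31. Of 27 genes of mitochondrial fatty acid oxidation and ketogenesis 5 rose and 7 fell with a median of 0.00, among them Hadhb, a rise of 1.20 ± 0.10, and Echs1, a fall of 0.66 ± 0.16. The fall of Echs1 was not called without the 20% animals 67, 72 and 73, at -0.45 (adjusted p = 0.123). Of 26 genes of the tricarboxylic acid cycle and its entry 6 rose and 3 fell. Citrate synthase (Cs) rose by 0.50 ± 0.09 and Idh3a by 0.75 ± 0.12.

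**Figure D4:**
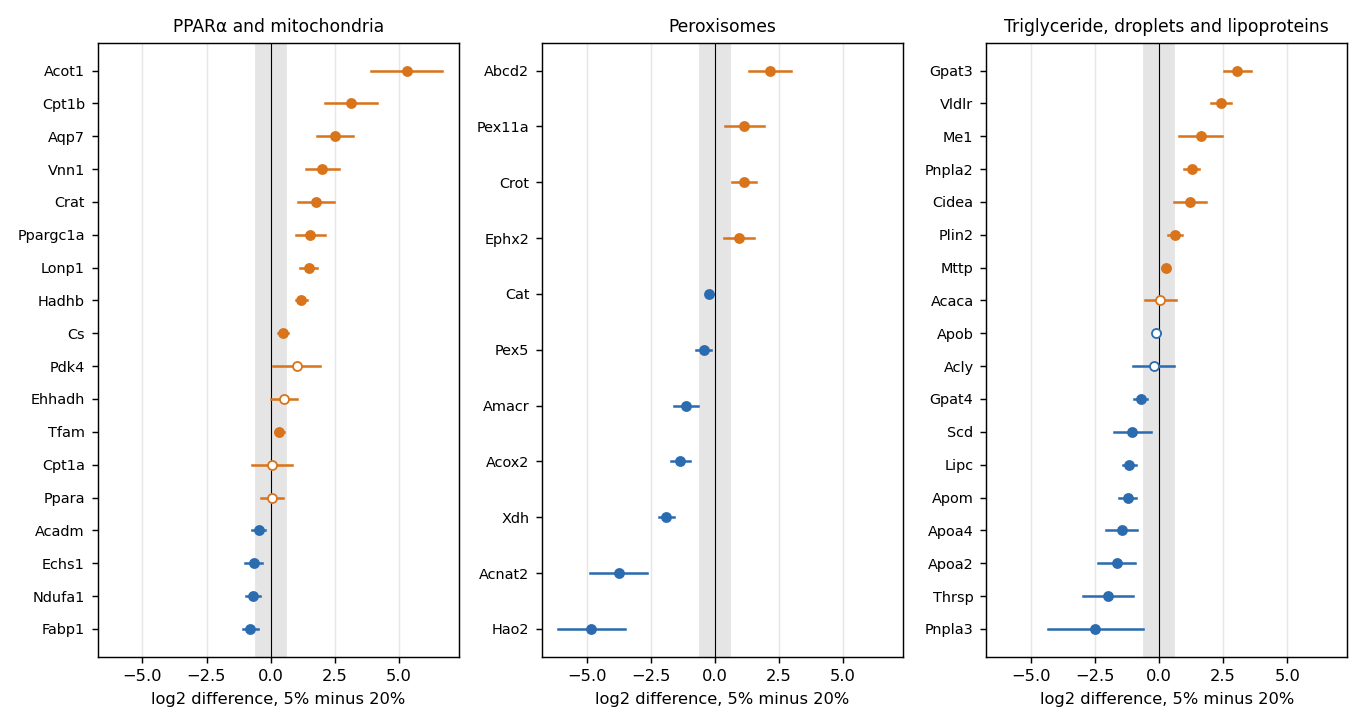
Log2 difference between 5% and 20% protein at 4 weeks, with its 95% confidence interval, for named genes of lipid handling, peroxisomes, peroxide metabolism and mitochondria. Filled points were called, open points were not, and the grey band is the range of 1.5-fold in either direction. Acot1, Cpt1b and Gpat3 lie farthest to the right, Hao2 and Acnat2 farthest to the left, and the points of Ppara and Cpt1a lie inside the band. The interval of Cpt1a extends past the band on both sides.

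In triglyceride metabolism the steps moved separately. Of 31 genes of fatty acid and triglyceride synthesis 7 rose and 8 fell. Gpat3, an acyltransferase that starts triglyceride synthesis, was at 7.45, 7.99 and 8.30 against 4.29, 4.71 and 6.03 and rose by 3.06 ± 0.25 (adjusted p = 4.26e-09), and its relative Gpat4 fell by 0.72 ± 0.13. Of the lipogenic genes, Me1, which supplies NADPH, rose by 1.62 ± 0.40. Scd, the stearoyl-CoA desaturase, fell by 1.05 ± 0.35, though this call was lost without either set of 20% animals (-1.10 and -1.0). Acly was at -0.21 ± 0.39 and Acaca at 0.05 ± 0.29, not called. Of 25 lipid droplet and lipase genes 6 rose and 7 fell: Pnpla2, the triglyceride lipase ATGL, rose by 1.28 ± 0.14, the droplet coat Plin2 by 0.63 ± 0.13 and Cidea by 1.21 ± 0.30. Pnpla3, the lipase known from inherited fatty liver, fell by 2.49 ± 0.90, with triplets of 5.62, 7.37 and 10.68 on 5% and 6.99, 10.45 and 11.87 on 20% that overlap. Pnpla3 lost its call without the 20% animals 67, 72 and 73, at -2.01 (adjusted p = 0.255), and also when any one of 10 of the 12 animals was left out, 59 and 63 being the exceptions. Scd lost its call also without any one of the animals 22, 32, 67 and 73. Cidea was highest, at 9.46, in the 5% animal 32, was 8.34 in the 5% animal 31 with high Adipoq and Ucp1, and lost its call without the 20% animals 67, 72 and 73 (0.75, adjusted p = 0.148).

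Genes that send lipid out or clear it from blood mostly fell. Of 22 genes of lipoprotein assembly and uptake 14 fell and 2 rose, with a median of -0.50. Apoa2, a main protein of HDL, fell by 1.66 ± 0.35, Apoa4 by 1.46 ± 0.30, Apom by 1.22 ± 0.16 and the hepatic lipase Lipc by 1.16 ± 0.12. The core parts of VLDL assembly differed, with Mttp, which loads lipid, up by 0.27 ± 0.07 and Apob at -0.11 ± 0.06, not called. Mttp lost its call without the 20% animals 67, 72 and 73, at 0.21 (adjusted p = 0.115). Vldlr, a receptor that takes lipoproteins up, was at 6.17, 7.06 and 7.97 against 4.28, 4.56 and 5.16 and rose by 2.41 ± 0.19 (adjusted p = 2.87e-09). Of 26 genes of bile acid synthesis and transport 13 fell and 6 rose. The export pumps rose, Abcc3 from 6.69, 6.79 and 6.99 on 20% to 9.90, 10.29 and 10.88 on 5% (3.50 ± 0.20), Abcb1a by 2.38 ± 0.21 and Abcc4 by 1.85 ± 0.16. Conjugation and uptake fell, Slc27a5 by 1.34 ± 0.22, Baat by 0.64 ± 0.10 and Slco2b1 by 1.11 ± 0.17. Cyp7a1, the rate-limiting enzyme, was at 1.25 ± 0.98 and not called, with an SD of 1.97 among the 20% animals. Of 21 cholesterol synthesis genes 1 rose and 3 fell, and their median was -0.19. Over all genes 13.4% rose and 12.4% fell.

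Glucose metabolism held few large differences. Of 37 genes 4 rose and 9 fell, where 13.4% of all genes rose and 12.4% fell. Pck2, the mitochondrial phosphoenolpyruvate carboxykinase, rose by 1.64 ± 0.15, whereas the cytosolic Pck1 was at -0.59 ± 0.40, not called. The fructose genes Slc2a5 and Khk fell by 2.01 ± 0.37 and 0.63 ± 0.14. Ppp1r3b, which brings phosphatase to glycogen, fell by 1.27 ± 0.25, and Slc37a4, which carries glucose 6-phosphate, by 0.65 ± 0.13. Gpd2, the mitochondrial glycerol 3-phosphate dehydrogenase, rose by 1.58 ± 0.17.

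Detoxification genes showed rises and falls within families. Of 39 genes of glutathione metabolism and targets of NRF2 14 rose and 6 fell. Gsta3, a glutathione transferase, was at 9.30, 9.49 and 9.60 on 5% and 4.41, 4.91 and 5.25 on 20%, and rose by 4.59 ± 0.19 (adjusted p = 1.76e-14). Akr7a3, an aflatoxin aldehyde reductase, rose by 2.40 ± 0.29 and Gpx2 by 1.74 ± 0.41, while Gstm2 fell by 2.51 ± 0.27, Gstm7 by 2.27 ± 0.24 and the selenoenzyme Gpx1 by 1.01 ± 0.14. The classical target Nqo1 was at 0.98 ± 0.43 and the glutathione-making Gclc at 0.38 ± 0.26, neither called. Of 32 genes of xenobiotic metabolism 7 rose and 6 fell. Cyp2b2 and Cyp2b1, the phenobarbital-inducible P450s, rose by 2.49 ± 0.43 and 2.04 ± 0.38, with 3.73 and 2.92 without the 20% animals 29, 30 and 63 and 1.25 and 1.17 without 67, 72 and 73. These 2 genes, and the members of the Gsta and Gstm families, are near-identical copies.

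Secreted plasma proteins fell widely and by little. Of 32 coagulation and complement genes 30 fell and none rose, with a median of -0.58, and of 36 plasma and acute phase proteins 24 fell and 1 rose, with a median of -0.31. The share of all genes that fell was 12.4%. The terminal complement component C6 fell by 2.46 ± 0.15, C1s by 1.54 ± 0.20 and factor XI (F11) by 1.04 ± 0.18. Orm1, an acute phase glycoprotein, was at 7.30, 7.84 and 9.38 against 10.08, 11.22 and 11.65 and fell by 2.96 ± 0.35 (adjusted p = 9.29e-07). Fibrinogen chains also fell, Fga by 0.40 ± 0.10 and Fgb by 0.39 ± 0.09. Both fibrinogen calls were lost without the 20% animals 67, 72 and 73, Fga at -0.26 (adjusted p = 0.143) and Fgb at -0.28 (adjusted p = 0.0949). Albumin was at -0.13 (95% confidence interval -0.25 to -0.02) and transferrin (Tf) at -0.09 (-0.20 to 0.01), both held within 1.5-fold. Values of such abundant messages sit near the top of the scale, 13.50, 13.69 and 13.75 for Alb on 5%, where array signal can flatten. Of the plasma proteins 22 fell without the 20% animals 29, 30 and 63 and 11 without 67, 72 and 73, and of the coagulation and complement genes 26 and 23.

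Interferon response genes were lower on 5% protein. Of 32 measured 17 fell and 2 rose, with a median of -0.63, and none had been called at 1 week. Psmb8, an immunoproteasome subunit, was at 6.33, 6.80 and 7.18 against 8.03, 8.18 and 8.89 and fell by 1.58 ± 0.23 (adjusted p = 1.62e-05), Usp18 fell by 1.52 ± 0.44, Oas1a by 1.23 ± 0.30 and Stat2 by 1.08 ± 0.13. The call of Usp18 was lost without the 20% animals 29, 30 and 63, at -1.22 (adjusted p = 0.134). Ifit2 rose by 0.95 ± 0.14. The count of falls was 11 without the 20% animals 29, 30 and 63, 11 without 67, 72 and 73, and 13 without 63 alone.

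Markers of other liver cells moved beside these lists. Of 17 markers of Kupffer cells and macrophages 11 fell and 1 rose, and their mean log2 intensity ran from 8.08 to 8.32 in the 5% animals and from 8.45 to 9.14 in the 20% animals, without overlap. Adgre1, the macrophage antigen F4/80, fell by 0.79 ± 0.18, Clec4f by 0.79 ± 0.14 and C1qa by 0.79 ± 0.13, while Cd14 rose by 0.73 ± 0.21. Cd14 lost its call without the 20% animals 67, 72 and 73, at 0.60 (adjusted p = 0.118). The 20% animal 63 had the highest mean, and 9 of the 17 fell without it. In whole liver RNA, fewer cells of a type and less RNA per cell cannot be told apart. Of 18 stellate cell and fibroblast markers 8 fell and none rose, with list means of 7.31 to 7.88 on 5% and 7.75 to 8.85 on 20%, and Col3a1 fell by 1.05 ± 0.21 and Col1a2 by 0.80 ± 0.23. Col1a2 lost its call without the 20% animals 29, 30 and 63, at -0.39 (adjusted p = 0.191), and was at -1.22 without 67, 72 and 73. The highest of these means was that of the 20% animal 30, with Col1a1 at 9.93, and 7 of the 18 fell without that animal. Of 12 endothelial markers 5 fell, of 16 T and natural killer cell markers 2 and of 9 B and plasma cell markers 2, and none of these 3 lists held a rise. Their part in the interferon and complement results was not tested. The share of T and natural killer cell markers that fell, 12.5%, was close to the 12.4% of all genes. C1qa, C1qb and C1qc belong to both the macrophage and the complement list.

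Of 13 cholangiocyte and progenitor markers 5 rose and none fell, led by Epcam at 6.89, 7.37 and 8.53 on 5% against 5.43, 6.0 and 6.29 on 20% (1.55 ± 0.31, adjusted p = 5.29e-04). Krt7 was at -0.02, Krt19 at -0.52 and Afp at -0.65, not called. The list mean was highest in the 5% animal 32, at 6.61, against at most 5.99 on 20% protein, and without that animal 3 of the 13 rose and the median of the list was 0.09, against 0.35 with it. Of 10 erythroid markers 3 fell, Alas2 by 1.80 ± 0.51 and the globin Hbb by 1.90 ± 0.41, and all 3 had been called lower at 1 week. The call of Alas2 was lost without the 20% animals 29, 30 and 63, at -1.11 (adjusted p = 0.204). Of 12 neutrophil markers 1 fell, of 9 adipocyte markers 1 rose and 1 fell, and none of 8 pancreatic acinar or 7 muscle markers was called.

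Hepatocytes near the portal vein and near the central vein carry different enzymes. Of 14 periportal markers 9 fell and 1 rose, with list means of 9.67 to 10.36 on 5% and 10.62 to 11.24 on 20%, and many are the breakdown enzymes above (Sds, Hal, Gls2, Arg1). Of 13 pericentral markers 5 fell and 2 rose. Rhbg, an ammonia channel of the pericentral cells, was at 8.47, 9.30 and 9.72 against 6.12, 6.64 and 7.08 and rose by 2.59 ± 0.21 (adjusted p = 2.81e-09). Cyp2e1 was at -0.05 ± 0.10, not called, and Cyp1a2 fell by 0.69 ± 0.18.

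Growth arrest genes rose in part while cell division genes were mostly not called. Of 26 growth arrest genes and targets of p53 9 rose and 3 fell. Gadd45a rose by 1.92 ± 0.26 and Eda2r by 1.24 ± 0.26, while Mdm2, a core p53 target, was at 0.22 ± 0.16 and Bax at 0.27 ± 0.11, not called. Cdkn1a, the cell cycle inhibitor p21, rose by 1.52 ± 0.52, but without the 20% animals 29, 30 and 63 its difference was 0.28 (adjusted p = 0.766). It also lost its call without any one of the animals 29, 30, 31, 32, 59 and 63. At 1 week 10 of 38 cell division genes had been called lower, where 2.44% of all genes were. At 4 weeks 4 of the 38 fell and none rose, a share of falls below the 12.4% of all genes. Rrm2 fell by 1.29 ± 0.41 and Mcm4 by 0.66 ± 0.19. Both calls were lost without the 20% animals 29, 30 and 63, Rrm2 at -0.95 (adjusted p = 0.209) and Mcm4 at -0.27 (adjusted p = 0.317). Without 29, 30 and 63 none of the 38 fell and 2 rose, and without 67, 72 and 73 there were 8 falls.

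Differences in clock genes followed a split among the 20% animals. Bmal1, which drives the clock's positive limb, was at 5.67, 6.17 and 5.38 in the 20% animals 29, 30 and 63 and at 9.02, 9.08 and 8.91 in the 20% animals 67, 72 and 73. The 5% animals were all like the latter, from 8.52 to 9.40. Per2, a repressor that peaks in the opposite phase, was at 9.42, 10.09 and 8.80 in the first 3, at 6.82, 5.87 and 6.41 in the other 3 and from 5.89 to 6.43 in the 5% animals. Over all animals Bmal1 rose by 1.67 ± 0.62 and Per2 fell by 1.84 ± 0.65. Each of these calls was lost when any one of 8 of the 12 animals was left out. Against the 20% animals 67, 72 and 73 alone, they were at 0.04 (adjusted p = 0.973) and -0.30 (adjusted p = 0.796), and Tef and Usp2 also lost their calls, at -0.38 and -0.27. Hlf, which fell by 1.57 ± 0.27, was at -1.10 with an adjusted p of 0.00749. The median of the 18 clock genes was -0.46 over all animals, 0.00 without 29, 30 and 63 and -1.02 without 67, 72 and 73. The labels give no hour of sampling.

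**Figure D5:**
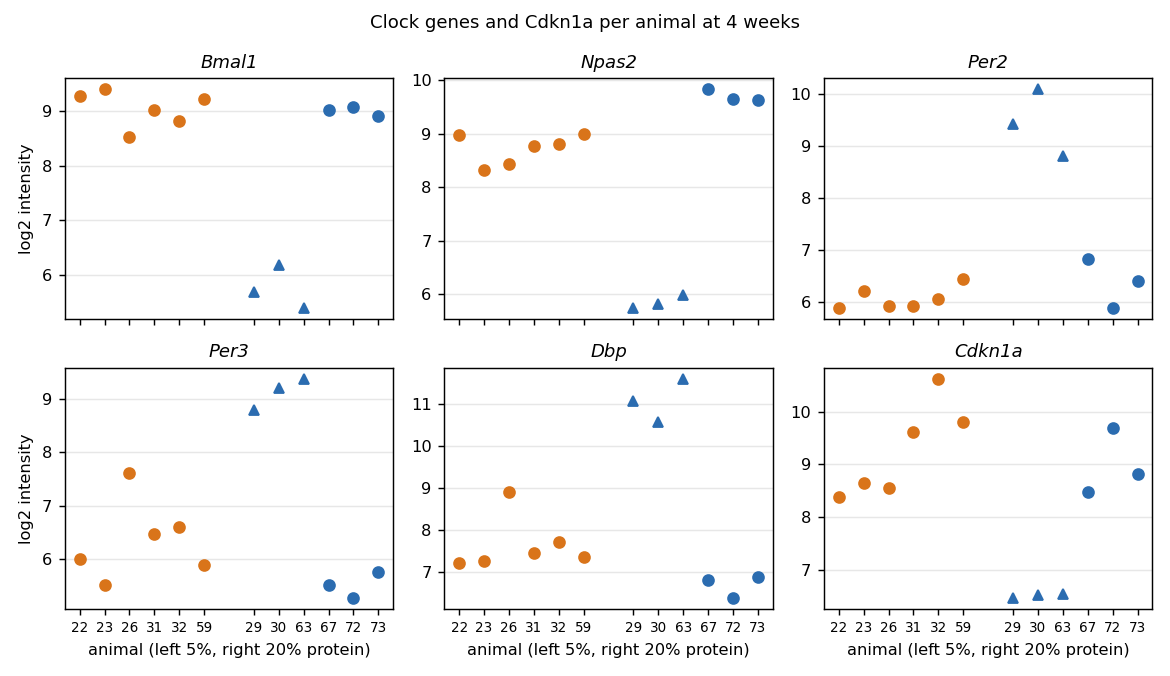
Log2 intensity of Bmal1, Npas2, Per2, Per3, Dbp and Cdkn1a in each of the 12 animals, with the 5% animals on the left and the 20% animals on the right, named by their numbers. The 20% animals 29, 30 and 63 have low Bmal1 and Npas2 and high Per2, Per3 and Dbp, and the other 3 lie with the 5% animals.

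Genes that keep proteins in shape or dispose of them were mostly not called. Among all genes 13.4% rose and 12.4% fell. Of 31 genes of endoplasmic reticulum stress and folding 3 rose and 5 fell, with Hspa5, the chaperone BiP, at -0.05 (95% confidence interval -0.38 to 0.28) and Xbp1 at -0.39 ± 0.15. Edem1 fell by 0.90 ± 0.16 and Atf6 rose by 0.71 ± 0.13. Of 26 cytosolic chaperones 7 rose, 5 of them subunits of the chaperonin CCT, and none fell. These counts depended on the animals, with 7 rises and 0 falls without the 20% animals 29, 30 and 63. Without 67, 72 and 73 there were 4 rises and 1 fall, with the run as a covariate 5 and 2, and in the first run alone 2 and 7. Hspb1 rose by 1.77 ± 0.46. Hspb1 lost its call without the 20% animals 67, 72 and 73, at 1.25 (adjusted p = 0.143). Of 38 proteasome and ubiquitin genes 33 were held within 1.5-fold, 2 rose and 4 fell, 2 of the falls being the interferon-induced Psmb8 and Psmb9. Of 37 autophagy and lysosome genes 7 rose and 11 fell, and of the cathepsins Ctsl rose by 0.70 ± 0.12 and Ctsh fell by 0.82 ± 0.11. Of 26 genes of iron handling 4 rose and 5 fell. Id1, a target of BMP signals that set hepcidin, rose by 1.11 ± 0.24 and ceruloplasmin (Cp) fell by 0.57 ± 0.11, with Hamp, hepcidin, at -0.13 ± 0.29. The call of Id1 was lost without the 20% animals 67, 72 and 73, at 0.80 (adjusted p = 0.0663). Of 12 common reference genes 1 rose (Rpl13a, a ribosomal protein, by 0.59 ± 0.08) and 1 fell (B2m, by 0.32 ± 0.06).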

How the data were processed

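Liver RNA was labelled as cDNA with biotin, without depletion of ribosomal RNA, per the labels' protocols. The deposited values are probe set intensity on the unlogged scale after RMA (background correction, quantile normalization and summary over probes), per the labels and the submitters' processing notes. The authors' software version and genome build are not given in the sources used here. Log2 of the intensity was taken. Of 29214 probe sets 18644 paired with 1 symbol, 962 with more than 1 and 9608 with no symbol, which were left out. The probe set with the highest mean represented each of 17245 genes, 879 of which had more than 1. One model of all 24 arrays (4 group means, 20 residual degrees of freedom, prior 3.95) was fitted with limma 3.58.1 in R 4.3.3, two-sided, after a check on simulated data. The labels do not say that the animals were housed apart. Named were the 15 largest non-overlapping rises and falls, up to 4 called members of each list and direction by smallest p, a fixed set of 28 measured genes, the 5 largest diet-by-time differences in each direction and the 5 smallest p-values. Another 86 genes were named after their values were seen. The members, the 43 gene lists and the 14 marker lists were chosen with earlier results of these data known. Alternatives covered normalization, offset, probe set choice, filter, variance model, covariates, runs and single animals. Figures were drawn with matplotlib 3.10.9.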

Additional observations from a re-analysis of the deposited data

Results flagged for a closer look

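Single animals lay far from the others of their group in 39 of 514 group values of the 257 genes named (7.59%), where chance gives about 1 in 20. The criterion was the 95% critical value of Dixon's ratio, the gap to the nearest animal over the range of all 6. The 20% animal 29 gave 9 of them. It was the lowest for Cyp2c11 (12.46 against 12.92 to 13.14), Dhrs7l1 (10.91 against 11.61 to 11.85), Gpat4 (7.85 against 8.28 to 8.50), Gpt (7.26 against 8.13 to 8.52), Gstm2 (11.03 against 11.70 to 11.89), Igfbp3 (8.78 against 9.30 to 9.53) and Scd (12.86 against 13.05 to 13.15) and the highest for Bax (7.75 against 7.43 to 7.54) and Slc7a11 (4.53 against 4.19 to 4.27). The 20% animal 30 was the highest for Adipoq (6.19 against 4.24 to 4.56), Col3a1 (9.66 against 8.40 to 8.87), Cpt1b (6.12 against 5.32 to 5.61), Gar1 (7.14 against 6.28 to 6.60), Rpl13a (11.44 against 11.24 to 11.30) and Unc5b (5.58 against 5.13 to 5.26), and the lowest for Fis1 (10.48 against 10.88 to 11.10) and Pex11a (6.80 against 7.76 to 8.28). The 20% animal 63 was the highest for Crat (9.24 against 7.97 to 8.35), Mb (7.19 against 3.96 to 4.31) and Slc7a2 (11.93 against 11.57 to 11.70), and the 20% animal 73 the lowest for Rrm2 (5.84 against 7.0 to 7.65).

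The 5% animal 23 was the lowest for Ass1 (11.81 against 12.49 to 12.76), Bhmt (10.80 against 12.27 to 12.82), Crot (10.51 against 11.51 to 11.84), Cyp2e1 (12.32 against 12.82 to 12.92), Hamp (11.28 against 12.75 to 12.90), Id1 (6.17 against 7.07 to 7.53), Ppargc1a (7.33 against 8.42 to 8.68) and Slc7a2 (10.75 against 11.22 to 11.41), and the highest for Alas2 (9.09 against 5.85 to 6.80). Hamp encodes hepcidin and Bhmt an enzyme of homocysteine, and in both the other 5 animals lay close together, Hamp between 12.75 and 12.90. The 5% animal 32 was the highest for Cidea (9.46 against 8.03 to 8.36), Cs (10.57 against 10.09 to 10.24) and Eif2ak3 (8.92 against 8.15 to 8.40), and the lowest for Acaca (9.14 against 10.60 to 11.34), Slc37a4 (10.13 against 10.84 to 11.22) and Thrsp (7.29 against 10.53 to 11.81). The 5% animal 31 was the highest for Adipoq (6.96 against 4.28 to 4.42), the adipocyte hormone, and the 5% animal 26 for Dbp (8.89 against 7.20 to 7.71). The 5% animal 59 was the lowest for Rxrb (6.57 against 7.15 to 7.38).

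The diet effect at 4 weeks differed from that at 1 week in 85 of the genes named, by limma's test of the difference (adjusted p below 0.05, 6 animals per group). These values are differences of log2 differences, and positive ones mean a larger or more positive effect of 5% protein at 4 weeks.
Among genes of the amino acid response, transport and translation, values were called for Trib3 (1.96), Atf3 (1.90), Aldh18a1 (1.20), Pycr1 (1.64), Slc7a1 (1.36), Slc7a5 (1.85), Vars1 (0.88), Rps19 (0.46) and Npm1 (0.87). Carriers that fell were called too, with Slc43a1 (-0.90) and Slc7a2 (-0.66). In amino acid and methyl group breakdown, values were negative for Gpt (-1.89), Hal (-1.05), Gls2 (-1.12), Otc (-0.83), Tdo2 (-0.99) and Gnmt (-1.83). The valine enzyme gene was positive, with Hibch (0.57). Lipid and mitochondrial genes with positive values were Acot1 (4.88), Acot2 (1.78), Cpt1b (2.42), Crat (1.77), Aqp7 (2.48), Gpat3 (2.32), Vldlr (1.42), Pnpla2 (0.97), Abcd2 (2.07), Hadhb (0.66), Lonp1 (1.17), Hspa9 (0.49), Tomm40 (0.87), Cs (0.44), Idh3a (0.62) and Gpd2 (0.84). Negative ones were Ndufa1 (-0.65), Acox2 (-1.0), Xdh (-1.07), Lipc (-0.69), Apoa4 (-1.42), Baat (-0.51), Slc27a5 (-1.24) and Slco2b1 (-0.95). Detoxification and export genes with positive values were Gsta3 (3.64), Akr7a3 (2.05), Abcc3 (2.52), Abcc4 (1.47) and Abcb1a (1.58). In the same class the value was negative for Gstm7 (-1.20). Sex-biased genes and other leading falls gave Stac3 (-6.52), Mup5 (-4.91), Dhrs7l1 (-4.52), Akr1c1 (-2.89), Nox4 (-3.50), Sez6 (-3.03), Spink1l (-3.27), Lrtm2 (-3.29) and Sult1c2al1 (-2.95). The female-type P450 and other leading rises gave Cyp2c12 (2.84), Unc5b (2.24), Gucy2c (2.66), Ccdc92 (3.38), C1h11orf86 (3.35), Serpina7 (2.03), Rhbg (2.22), Gadd45a (1.34), Eda2r (1.33) and Gdf15 (1.66). Genes of hormone signalling and nuclear receptors gave Grb10 (1.0), Gcgr (-0.83), Esr1 (-1.76), Nr3c1 (-0.56) and Hlf (-1.26). Genes of sugar metabolism gave Slc2a5 (-2.25), Khk (-0.81) and Slc37a4 (-0.78). Secreted and immune genes gave Orm1 (-2.33), C6 (-1.60), C1s (-1.36), C1qa (-0.69), Cp (-0.57), Psmb8 (-1.22), Stat2 (-0.72) and Ctsh (-0.54). Outside these classes, the value was Coro6 (1.76) and Tenm4 (2.27).
The dependence of these calls on single animals is given with the counts for all genes above.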

How the results depend on the processing

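Of the 407 genes named here or by the rule 361 were called, and 305 of these kept direction and call under every other setting chosen at the start, the single runs aside. No paired analysis was possible because no rat number appears in 2 groups. Counts that moved by over 1.5 times were these. Run 1 alone called 1434 genes higher and 1300 lower, and run 3 alone 1178 and 946, with fewer animals. Genes held within 1.5-fold numbered 7241 with the lowest 33.3% of genes left out, which tests fewer genes, and 8012 in run 3 alone. Diet by time called 952 higher and 588 lower with array weights, 311 and 175 with the run as a covariate, 930 and 669 without the 20% animals 29, 30 and 63, and 76 and 51 without 67, 72 and 73; the cause was not tested. Leaving out 1 animal of the 4-week groups at a time gave 2060 to 2394 genes higher and 1922 to 2121 lower, 888 to 1088 and 762 to 872 of at least 1.5-fold, 12396 to 12748 held, and 360 to 890 and 219 to 519 for diet by time. Animals fed for 1 week were not left out in turn. Aqp9, a glycerol channel, fell by 0.31 and was 0.055 in run 3 alone (limma, adjusted p = 0.883), and in that run Pnpla3 was 0.99 (from -2.49) and Tfam -0.017 (from 0.35), Fbxl20 -0.61 and Ptpa -0.68, while Elovl6 was -1.54 and H6pd 0.47 in run 1 alone, where the cause was not tested. Leaving out sets of 20% animals was chosen after seeing the data. RMA values carry no detection call, so signal over background is unknown, and the number of arrays limits the precision.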

Other observations

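Some genes outside the lists, chosen after their values were seen, also differed by diet at 4 weeks. H19, an imprinted noncoding RNA that is abundant in fetal liver, was at 6.17, 10.57 and 11.65 in the 5% animals and at 5.32, 6.73 and 7.90 in the 20% animals. It rose by 3.17 ± 0.67 (limma, adjusted p = 9.48e-04), with overlap and with a wide spread on 5% protein. Igf2, its neighbour in the imprinted cluster, was at -0.18 ± 0.10 and not called. Without the 20% animals 67, 72 and 73 Igf2 was called, at -0.31 (adjusted p = 0.044). Tenm4, a teneurin membrane protein, rose by 2.37 ± 0.40, and Cyp4b1, a P450, by 2.14 ± 0.43. Gstp3, a glutathione transferase whose family holds close copies, fell by 3.02 ± 0.56. Coro6, a coronin that binds actin, had one of the 5 smallest p-values and rose by 3.31 ± 0.18.

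The diet effect itself differed between the runs of animal numbers in 5 genes (limma, adjusted p below 0.05), and in 1847 by unadjusted p. The 5 were Elovl6, which elongates fatty acids, H6pd, which makes NADPH in the endoplasmic reticulum, Fbxl20, Ptpa and Rxrb. Elovl6 was -1.54 in the first run and 3.47 in the other, and H6pd 0.47 and -0.80. The 5% part of the second of these runs is a single animal, assumed to vary like the other groups. Between the runs 145 genes were higher and 165 lower among the 20% animals, and none was called among the 5% animals (971 by unadjusted p).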
